A study of Homo sapiens with 15 samples.

Results

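Transcripts of the BCL2 family were followed in A549, an established human lung adenocarcinoma cell line, across normoxia, hypoxia and hypoxia with 1 of 3 compounds. The 10 genes considered were BCL2, BCL2L1, BCL2L2 and MCL1, which oppose apoptosis, BAK1, which executes it, and the BH3-only genes BCL2L11, BID, BAD, BIK and BMF. A gene was represented by the probe set that the platform's probe table pairs with its symbol alone, and where there were several by the one with the highest mean. This gave a value for 9 of the 10 genes, out of 18377 genes with such a probe set. The only probe set naming BCL2L2 is shared with the readthrough gene BCL2L2-PABPN1, so no value is given for it.

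The 15 cultures formed 5 groups of 3, each measured on 1 Affymetrix whole-transcript array. Every culture received 0.1% DMSO, the solvent of the compounds. One group stayed in normoxia with vehicle, and no compound was given in normoxia in these samples. The other 4 groups received vehicle or 10 µM of BB2-125, BB2-162 or BB2-282 for 6 h and were then sealed in GasPak EZ pouches for 42 h of hypoxia. The compounds are code-named; the labels call them oligooxopiperazines and the design text calls them transcriptional inhibitors. The replicates are labelled biological, with nothing more on their independence. The p-values set each difference of group means against the spread among these particular cultures and do not cover variation beyond them. All samples come from 1 cell line.

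The BCL2 family decides at the mitochondrial outer membrane whether a stressed cell dies. BAK1 and its relative BAX can form pores there that release cytochrome c, which starts the caspase cascade. BCL2, BCL2L1 (the gene of BCL-XL), BCL2L2 (BCL-W) and MCL1 hold the effectors in check by binding them and the BH3-only proteins. BH3-only proteins relay stress signals, either by binding the guardians or by activating the effectors. MCL1 protein and mRNA are short-lived, and lung adenocarcinoma cells commonly depend on MCL1 or BCL-XL for survival.

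Values below are log2 intensities of the deposited signal unless a change is named, and a change is the difference of 2 group means in log2 units with limma's standard error after ±. Medians per array lay between 6.23 and 6.4 and the 25th percentiles between 4.57 and 4.9. No pair of arrays was identical. One array was unlike its group: the log2 values of BB2-162 replicate 1 deviated from the group means by 0.221 (root mean square over genes), against 0.094 to 0.163 for the other arrays. Calls on members that changed without this replicate are given below. Of 5 epithelial markers, 4 were above the array median on every array (EPCAM was above it on 3 arrays), as were all 7 measured genes known to be high in A549. None of the 4 measured leukocyte and 5 endothelial markers was above it on any array. Of 5 fibroblast markers, COL1A1 was above the median on 15 arrays, COL3A1 on 14 and COL1A2 on 13, while PDGFRB was above it on none and DCN lay between 3.18 and 3.57. Each array holds RNA of a whole culture, so fewer cells with a transcript and less of it per cell cannot be told apart.

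Proximal promoters are shown for 4 of the members that passed with hypoxia, BCL2L1, BAK1 and BAD higher and BCL2L11 lower. RefSeq promoter windows on GRCh38.p14 were matched by symbol for 7 of the 10 members, and MCL1, BIK and BCL2L2 were not matched. The 250 bases before the outermost start site are printed 5′ to 3′ on the gene's strand. Capitals mark matches, on either strand, to the core of the hypoxia response element that HIF binds (ACGTG or GCGTG) or to the motif GTAAACA bound by FOXO factors.
BCL2L1 (chr20:31723964-31724213, minus strand): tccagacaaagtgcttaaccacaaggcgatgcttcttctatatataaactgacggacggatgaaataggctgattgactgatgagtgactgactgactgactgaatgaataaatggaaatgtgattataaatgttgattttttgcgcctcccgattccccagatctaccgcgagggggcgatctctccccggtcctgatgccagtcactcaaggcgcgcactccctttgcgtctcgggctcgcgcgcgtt
BAK1 (chr6:33580277-33580526, minus strand): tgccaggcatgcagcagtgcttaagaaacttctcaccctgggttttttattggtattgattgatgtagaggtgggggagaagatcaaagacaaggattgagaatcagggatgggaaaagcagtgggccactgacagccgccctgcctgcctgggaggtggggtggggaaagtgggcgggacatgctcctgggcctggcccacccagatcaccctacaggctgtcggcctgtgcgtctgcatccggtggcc
BCL2L11 (chr2:111120664-111120913, plus strand): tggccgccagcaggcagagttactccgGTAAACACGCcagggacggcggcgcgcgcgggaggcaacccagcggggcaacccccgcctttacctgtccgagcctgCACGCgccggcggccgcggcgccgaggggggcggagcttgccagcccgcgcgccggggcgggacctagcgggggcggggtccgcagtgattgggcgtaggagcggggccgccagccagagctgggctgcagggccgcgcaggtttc
BAD (chr11:64284705-64284954, minus strand): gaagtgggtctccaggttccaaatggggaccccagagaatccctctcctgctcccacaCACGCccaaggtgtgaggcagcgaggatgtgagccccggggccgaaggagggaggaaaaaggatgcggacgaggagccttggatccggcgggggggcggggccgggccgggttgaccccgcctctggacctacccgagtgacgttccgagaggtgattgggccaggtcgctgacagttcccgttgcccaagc
The BCL2L11 window holds GTAAACA at 223 bases before the start and GCGTG on the reverse strand at 218 and 146 bases, and the first 2 of these matches overlap. The BAD window holds GCGTG on the reverse strand at 192 bases. In the BCL2L1 and BAK1 windows none of these letters occurred. Among the matched windows not printed, that of BMF, which did not pass with hypoxia, holds GCGTG at 60 bases before the start. The windows of BCL2, which did not pass, and of BID, which fell, hold no match. ACGTG or GCGTG was found in 43.1% of 27305 promoter windows of this length, and GTAAACA in 3.01%. BCL2L11 is a textbook FOXO target gene. A match is a description of these letters and no evidence of binding.

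Hypoxia alone changed most of the measured family, and MCL1 most. Against normoxic vehicle, 7 of the 9 members passed an adjusted p of 0.05, 5 higher and 2 lower. Over all 16005 genes tested 57.5% passed, 28.2% higher and 29.4% lower, so most genes moved in this comparison. MCL1, BAD, BCL2L1, BIK and BAK1 rose, BCL2L11 and BID fell, and BCL2 and BMF did not pass. The median change of the 9 members was 0.36, beside 0.09 for all genes.

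Among the genes that oppose apoptosis, MCL1 read 9.36, 9.84 and 9.42 in the normoxic arrays and 11.27, 11.45 and 11.19 in the hypoxic vehicle arrays. The groups were far apart, with the lowest hypoxic array above the highest normoxic one. MCL1 rose by 1.76 ± 0.13 (3.39-fold, limma adjusted p = 1.84e-09). BCL2L1 read 10.26, 10.49 and 10.3 in normoxia and 11.01, 11.05 and 11.15 in hypoxia, again without overlap. It rose by 0.71 ± 0.1 (1.64-fold, limma adjusted p = 8.85e-06). BCL2 read 5.63, 5.38 and 5.63 in normoxia and 5.58, 5.42 and 5.78 in hypoxia. Its groups overlapped, and the change was 0.05 (95% interval -0.19 to 0.28). BCL2 signal was below the median of every array, so small changes in it are hard to resolve.

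BAK1, the pore-forming effector, read 7.97, 7.78 and 7.45 in normoxia and 8.24, 7.94 and 8.08 in hypoxia. The highest normoxic array exceeded the lowest hypoxic one. BAK1 rose by 0.36 ± 0.13 (limma adjusted p = 0.0224), a call that ended without normoxic replicate 3 (adjusted p = 0.157) or without hypoxic vehicle replicate 1 (adjusted p = 0.103).

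The BH3-only genes did not share a direction. BAD, whose protein binds BCL2 and BCL-XL and is silenced by survival kinases, read 8.15, 7.81 and 8.04 in normoxia and 8.77, 8.69 and 8.78 in hypoxia. BAD rose by 0.75 ± 0.1 (1.68-fold, limma adjusted p = 5.81e-06), with no overlap between the groups. BCL2L11, the gene of BIM, which can bind every guardian and activate the effectors, read 6.77, 7.08 and 7.11 in normoxia and 6.32, 6.43 and 6.34 in hypoxia. All hypoxic arrays were below all normoxic ones. BCL2L11 fell, with a change of -0.63 ± 0.13 (1.55-fold lower, limma adjusted p = 0.000322). BID, which links death receptors to mitochondria once caspase-8 has cut it, read 8.97, 9.2 and 9.02 in normoxia and 8.78, 8.75 and 8.69 in hypoxia. BID fell, with a change of -0.32 ± 0.09 (1.25-fold lower, limma adjusted p = 0.00747), and its groups did not overlap.

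Of the remaining BH3-only genes, BIK passed and BMF did not. BIK, whose product sits largely at the endoplasmic reticulum, read 5.21, 5.47 and 5.11 in normoxia and 5.5, 5.59 and 5.82 in hypoxia. Its groups were separate by a narrow margin and it rose by 0.37 ± 0.13 (limma adjusted p = 0.0197). The BIK call ended under quantile normalization (adjusted p = 0.0668) and without normoxic replicate 1 (0.0566), normoxic replicate 3 (0.0941) or hypoxic vehicle replicate 3 (0.103). BMF, which responds to loss of cell attachment, read 6.58, 6.41 and 6.58 in normoxia and 6.55, 6.51 and 6.65 in hypoxia. The groups overlapped and the change was 0.05 (95% interval -0.2 to 0.29).

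**Figure D1:**
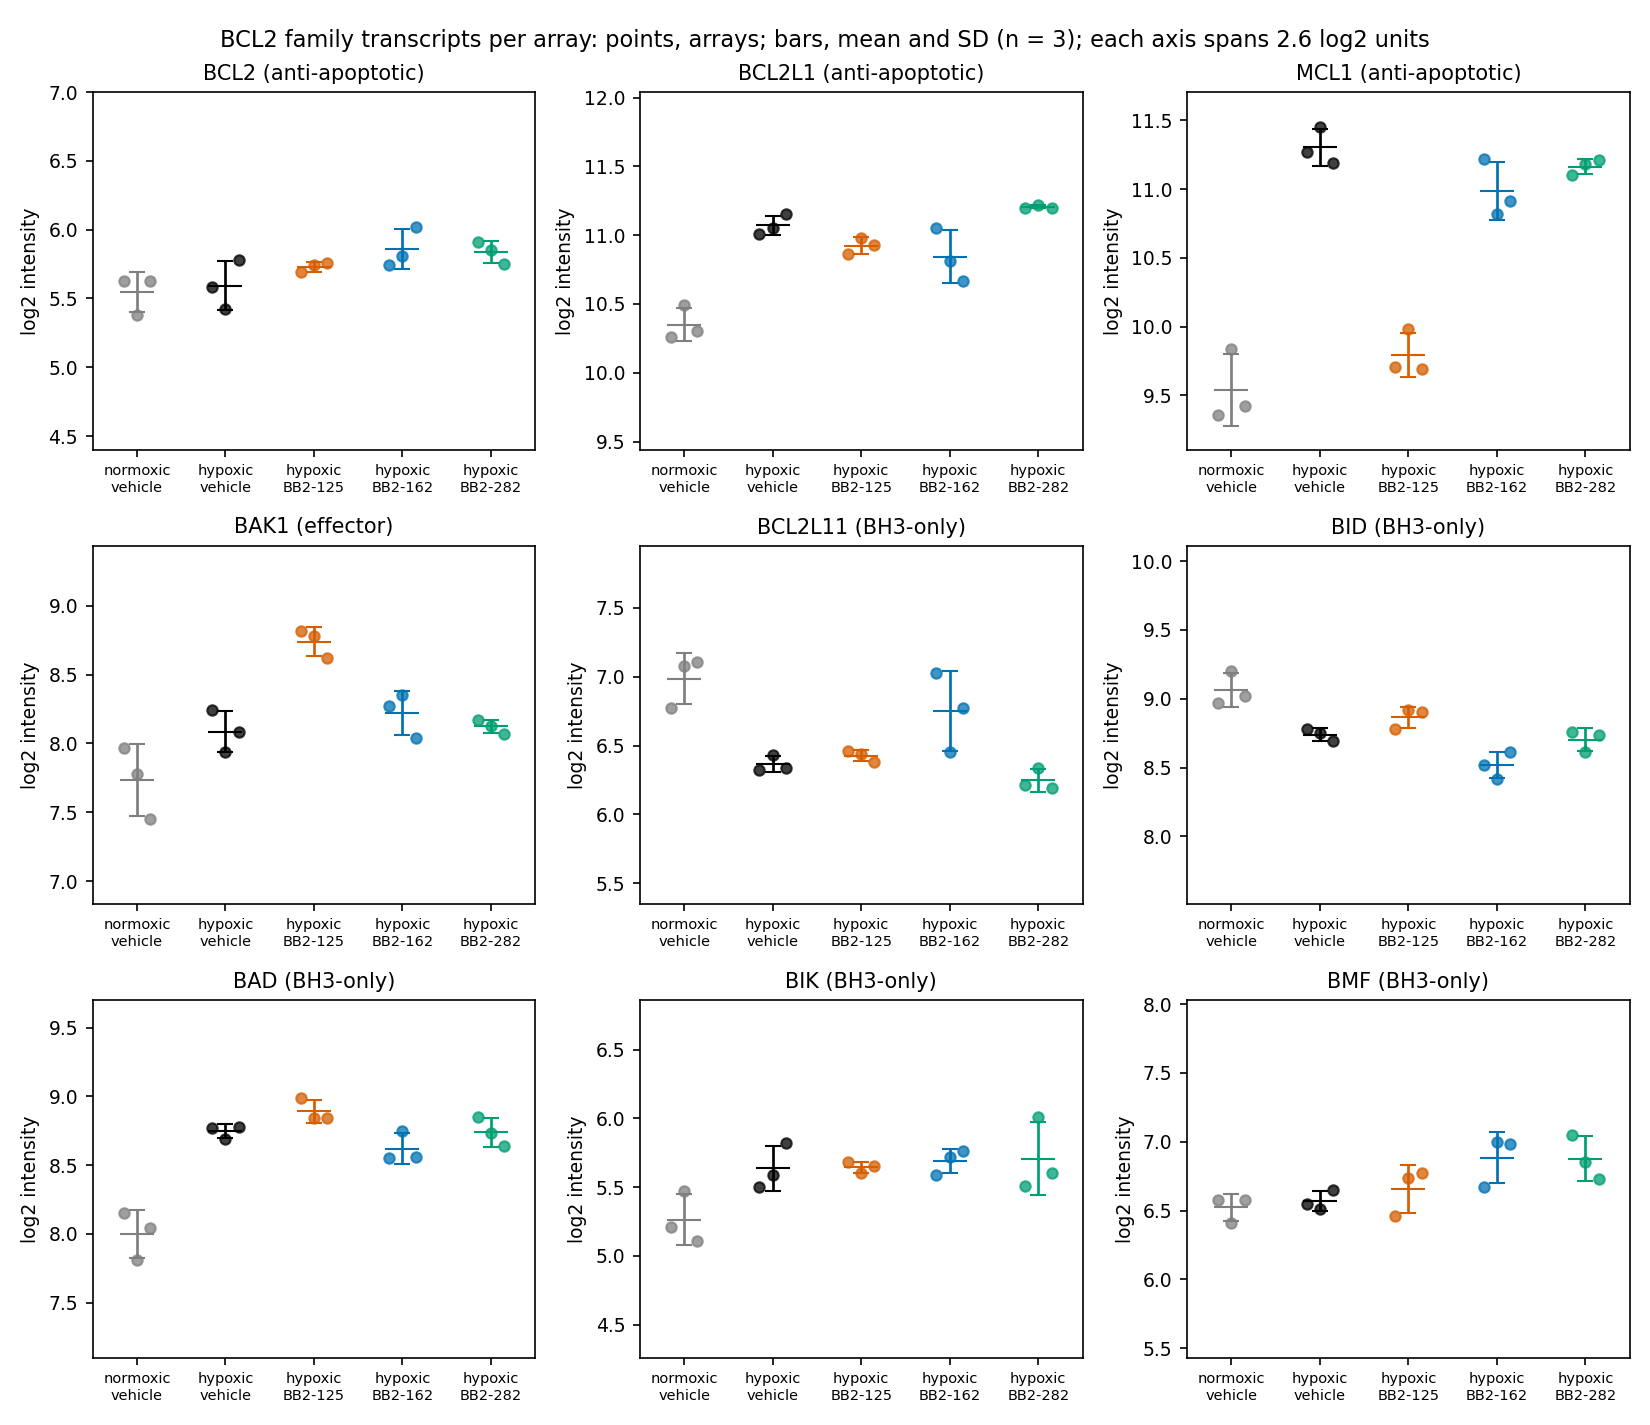
Log2 intensity of the 9 measured BCL2 family genes on each of the 15 arrays. Points are arrays, bars are the mean and SD of 3 arrays, and every vertical axis spans the same number of log2 units. MCL1 is high in hypoxic vehicle (11.19 to 11.45), BB2-162 and BB2-282 and low in normoxia and BB2-125 (9.69 to 9.98), while BAK1 is highest with BB2-125 (8.62 to 8.82).

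BB2-125 lowered MCL1 and raised BAK1 in hypoxic cells. These were 2 of the 9 members, 1 lower and 1 higher, where 28.4% of all genes passed, 15% lower and 13.3% higher. The members' share was thus close to that of all genes. The median change over the members was 0.09, beside 0.02 for all genes. This comparison and the one of hypoxia share the hypoxic vehicle arrays.

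With BB2-125 MCL1 read 9.71, 9.98 and 9.69, against 11.27, 11.45 and 11.19 in hypoxic vehicle. Every BB2-125 array was below every hypoxic vehicle array by more than 1 log2 unit. MCL1 fell, with a change of -1.51 ± 0.13 (2.84-fold lower, limma adjusted p = 1.34e-07). Its level came close to that of normoxia, where the highest array, 9.84, lay within the BB2-125 range. Against normoxic vehicle the difference was 0.25 (95% interval -0.03 to 0.54, limma adjusted p = 0.104). That interval allows MCL1 to have stayed somewhat above normoxia. The difference passed after quantile normalization (0.31, adjusted p = 0.0406) and without normoxic replicate 2 (0.4, adjusted p = 0.0162).

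BAK1 with BB2-125 read 8.82, 8.78 and 8.62, above the 8.24, 7.94 and 8.08 of hypoxic vehicle without overlap. It rose by 0.65 ± 0.13 (1.57-fold, limma adjusted p = 0.000598). BAK1 was also higher with hypoxia alone, a call that some single arrays could end. Its mean in BB2-125 was 1.01 ± 0.13 above normoxia (2.01-fold, limma adjusted p = 1.51e-06). The MCL1 fall and the BAK1 rise against hypoxic vehicle were called in each of 15 alternative analyses, over which the MCL1 change ran from -1.6 to -1.44 and the BAK1 change from 0.58 to 0.73. The replicate number was related to the arrays of these 2 groups, and with it as a block both genes were called again.

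The other 7 members did not pass with BB2-125. BCL2L1 read 10.86, 10.98 and 10.93, with a change of -0.14 (95% interval -0.36 to 0.07). BAD read 8.99, 8.84 and 8.84, with a change of 0.15 (95% interval -0.07 to 0.36). For both genes the 2 sets of arrays did not overlap, although the difference was small. The share of all genes without overlap is not given here, so a lack of overlap, for these and other members, only describes the arrays. BCL2L11 read 6.46, 6.44 and 6.38, still below the normoxic arrays, with a change of 0.07 (95% interval -0.2 to 0.33). BID read 8.78, 8.92 and 8.9 (change 0.13, 95% interval -0.07 to 0.33). BCL2 read 5.69, 5.74 and 5.76, BIK 5.68, 5.6 and 5.65, and BMF 6.46, 6.74 and 6.77. The changes of these last 3 genes lay between 0.01 and 0.14.

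With BB2-162, MCL1 kept most of its hypoxic level and the calls fell on 2 BH3-only genes. BCL2L11 and BMF passed, both higher, where 36.1% of all genes passed, 15.7% higher and 20.4% lower. The median change of the members was 0.05, beside 0.06 for all genes. BCL2L11 read 7.03, 6.45 and 6.77, spread over a wider range than in any other group, against 6.32, 6.43 and 6.34 in hypoxic vehicle. It rose by 0.39 ± 0.13 (limma adjusted p = 0.0232), and its highest value is that of replicate 1, the array unlike its group. Without that array the change was 0.25 (limma adjusted p = 0.0889). The call also ended without hypoxic vehicle replicate 1 (0.37, adjusted p = 0.0704) or BB2-162 replicate 3 (0.38, adjusted p = 0.0616). It ended too under median centring (0.32, adjusted p = 0.0926), under quantile normalization (0.34, adjusted p = 0.0575) and with the 2 groups alone (0.39, adjusted p = 0.0853). BMF read 6.67, 7 and 6.98 against 6.55, 6.51 and 6.65, and rose by 0.32 ± 0.12 (limma adjusted p = 0.0447). BMF missed the threshold with the replicate number as a block (0.32, adjusted p = 0.0565), under median centring (0.24, adjusted p = 0.0911) and with the 2 groups alone (0.32, adjusted p = 0.103). It also missed it without hypoxic vehicle replicate 1 (adjusted p = 0.107), hypoxic vehicle replicate 2 (0.127), BB2-162 replicate 2 (0.155) or BB2-162 replicate 3 (0.147). Neither call is therefore firm.

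MCL1 with BB2-162 read 11.22, 10.82 and 10.91, and its change of -0.32 (95% interval -0.6 to -0.04) did not pass (limma adjusted p = 0.0702). The highest of these values again belongs to replicate 1. Without it 4 members passed, namely MCL1 (-0.44, adjusted p = 0.0145), BCL2L1 (-0.33, adjusted p = 0.0122), BCL2 (0.32, adjusted p = 0.0329) and BMF. With all arrays BCL2L1 read 11.05, 10.81 and 10.67 (change -0.22, adjusted p = 0.0941) and BCL2 read 5.74, 5.81 and 6.02 (change 0.26, adjusted p = 0.0717). BID read 8.52, 8.42 and 8.61, below every hypoxic vehicle array, with a change of -0.22 (adjusted p = 0.0761). Median centring of the arrays, which lowers the BB2-162 values relative to the others, gave -0.29 for BID (adjusted p = 0.0283). BAK1 at 8.27, 8.35 and 8.04, BAD at 8.55, 8.75 and 8.56, and BIK at 5.59, 5.72 and 5.76 overlapped the hypoxic vehicle arrays.

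With BB2-282 no member passed in limma, where 13.6% of all genes did; 2 members, BMF and BCL2, had an unadjusted p under 0.05. The median change of the members was 0.04, beside 0.02 for all genes. MCL1 read 11.1, 11.18 and 11.21, inside or just below the hypoxic vehicle range, with a change of -0.14 (95% interval -0.42 to 0.14). BCL2L1 read 11.2, 11.22 and 11.2, above the highest hypoxic vehicle array, with a change of 0.14 (95% interval -0.08 to 0.36). BMF read 7.05, 6.85 and 6.73, also without overlap, with a change of 0.31 (limma adjusted p = 0.0987). BCL2 read 5.91, 5.85 and 5.75 (change 0.24, limma adjusted p = 0.187). BAK1 at 8.17, 8.13 and 8.07, BCL2L11 at 6.21, 6.34 and 6.19, BID at 8.76, 8.61 and 8.74, BAD at 8.85, 8.73 and 8.64, and BIK at 5.51, 6.01 and 5.6 all overlapped hypoxic vehicle.

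**Figure D2:**
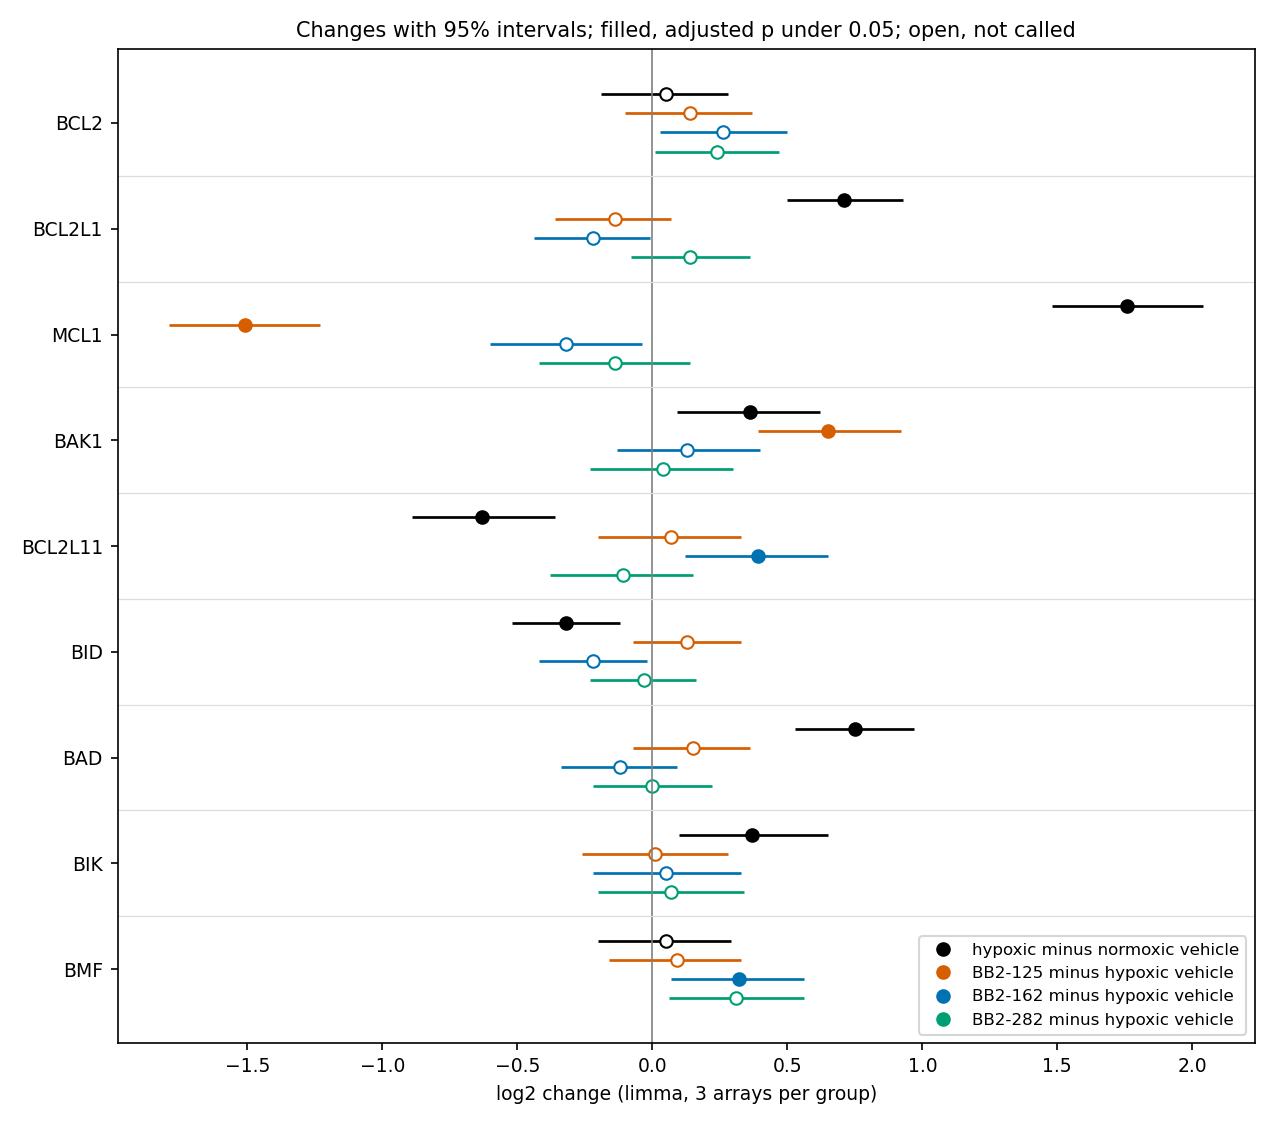
Log2 change of each gene for hypoxic minus normoxic vehicle and for each compound minus hypoxic vehicle, with 95% intervals from limma (3 arrays per group). Filled points have an adjusted p under 0.05. MCL1 stands at 1.76 for hypoxia and -1.51 for BB2-125, and no point of BB2-282 is filled.

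The order of group means summarises these levels. For MCL1 it ran from hypoxic vehicle (11.3) over BB2-282 (11.16), BB2-162 (10.98) and BB2-125 (9.79) to normoxia (9.54), and only the step from BB2-162 to BB2-125 passed between neighbours. For BAK1 it ran from BB2-125 (8.74) over BB2-162 (8.22), BB2-282 (8.12) and hypoxic vehicle (8.09) to normoxia (7.73). The first and the last step passed, the last not without some single arrays. BCL2L1 and BAD were each lowest in normoxia (10.35 and 8), and of their neighbouring steps only the one down to normoxia passed. BCL2L11 was highest in normoxia (6.99) and lowest with BB2-282 (6.25), and BID was highest in normoxia (9.06) and lowest with BB2-162 (8.52). No neighbouring step passed for BCL2L11, BID, BCL2 or BMF. BIK was lowest in normoxia (5.26), and only its step from hypoxic to normoxic vehicle passed, again not without some single arrays.

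Each compound group was also set against normoxic vehicle. With BB2-125, 5 of 9 members passed, 4 higher and 1 lower (62% of all genes, 31.5% higher and 30.5% lower). With BB2-162, 8 of 9 passed, 7 higher and 1 lower (76.8% of all genes, 42.4% higher and 34.4% lower). With BB2-282 all 9 measured members passed, 7 higher and 2 lower (64.8% of all genes, 33.4% higher and 31.4% lower). MCL1 remained above normoxia by 1.44 ± 0.13 with BB2-162 (2.72-fold) and by 1.62 ± 0.13 with BB2-282 (3.08-fold). BAD was above normoxia by 0.89, 0.62 and 0.74 with BB2-125, BB2-162 and BB2-282, and BCL2L1 by 0.57, 0.49 and 0.86. BCL2L11 was lower than in normoxia with BB2-125 (-0.56 ± 0.13) and BB2-282 (-0.74 ± 0.13). With BB2-162 its difference of -0.24 did not pass (limma adjusted p = 0.0922), but it did without BB2-162 replicate 1 (-0.38, adjusted p = 0.0076), without normoxic replicate 1 (-0.35, adjusted p = 0.0262) and under median centring (-0.35, adjusted p = 0.0329). Several calls on other members ended under single alternatives. With BB2-125 these were BIK under quantile normalization (0.24, adjusted p = 0.114) and without normoxic replicate 3 (0.3, adjusted p = 0.0825). With BB2-162 they were BCL2 and BIK under quantile normalization (adjusted p = 0.28 and 0.142), BCL2 under median centring (0.0799) and without normoxic replicate 2 (0.0975) or BB2-162 replicate 3 (0.0915), and BMF without normoxic replicate 2 (0.0507). With BB2-282 BCL2 was lost under quantile normalization (0.0917) and without normoxic replicate 2 (0.154), BB2-282 replicate 1 (0.101) or BB2-282 replicate 2 (0.0722). BMF was lost there without normoxic replicate 2 (0.0674) or BB2-282 replicate 1 (0.0849), BAK1 without normoxic replicate 3 (0.0915) and BIK without BB2-282 replicate 2 (0.0543). With single arrays left out 7 to 9 members were called with BB2-282, 6 to 9 with BB2-162 and 4 to 6 with BB2-125. These comparisons share the normoxic arrays.

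The compounds were also compared with each other at the same dose and time, a set of contrasts without vehicle arrays. Of 27 member differences over 3 pairs of compounds, 8 passed in limma with adjustment over all genes, a share near that of all genes in these contrasts (26.1%, 36.3% and 35.8%). MCL1 and BAK1 differed in both contrasts of BB2-125. These contrasts share the BB2-125 arrays with each other and with the comparisons of BB2-125 against vehicle. MCL1 was lower with BB2-125 than with BB2-162 by a difference of -1.19 ± 0.13 (95% interval -1.47 to -0.91, 2.28-fold lower, limma adjusted p = 5.66e-06). It was lower than with BB2-282 by a difference of -1.37 ± 0.13 (95% interval -1.65 to -1.09, 2.58-fold lower, limma adjusted p = 2.41e-07). No BB2-125 array reached the lowest array of either other compound. Over 14 alternatives the MCL1 difference from BB2-162 ran from -1.28 to -1.07 and was called in each. BAK1 was higher with BB2-125 than with BB2-162 by 0.52 ± 0.13 (limma adjusted p = 0.00518) and than with BB2-282 by 0.62 ± 0.13 (limma adjusted p = 0.000668), again without overlap.

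Smaller differences separated other pairs. In BB2-125 against BB2-162, 3 members passed, 2 higher and 1 lower (26.1% of all genes, 16.7% higher and 9.43% lower), the third being BID (0.35 ± 0.09, limma adjusted p = 0.0113). In BB2-125 against BB2-282, 3 members passed, 1 higher and 2 lower (36.3% of all genes, 18.7% higher and 17.6% lower), with BCL2L1 at -0.29 ± 0.1 (limma adjusted p = 0.0368). The BCL2L1 call ended when any 1 of the 6 arrays was left out (adjusted p from 0.0511 to 0.118). In BB2-162 against BB2-282, 2 members passed, 1 higher and 1 lower (35.8% of all genes, 15.6% higher and 20.3% lower). BCL2L11 was higher with BB2-162 by 0.5 ± 0.13 (limma adjusted p = 0.00426) and BCL2L1 lower (-0.37 ± 0.1, limma adjusted p = 0.00974). The BCL2L11 difference was called in each of 14 alternatives, over which it ran from 0.36 to 0.65. The BCL2L1 call ended without BB2-162 replicate 3 (-0.28, adjusted p = 0.0576). MCL1 did not differ detectably between BB2-162 and BB2-282 (-0.18, 95% interval -0.46 to 0.1), and neither did BAK1 (0.1, 95% interval -0.17 to 0.36). With all arrays BCL2, BIK and BMF passed in none of the 3 pairs, with differences from -0.23 to 0.02. For BMF the difference of BB2-125 minus BB2-162 was -0.23 (95% interval -0.48 to 0.02), but without BB2-162 replicate 1 it was -0.33 and passed (adjusted p = 0.0325). In the same pair BCL2L11 (-0.47, adjusted p = 0.00845) and BAD (0.34, adjusted p = 0.0424) passed without BB2-162 replicate 2. BAD passed there under median centring as well (0.32, adjusted p = 0.0213).

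**Figure D3:**
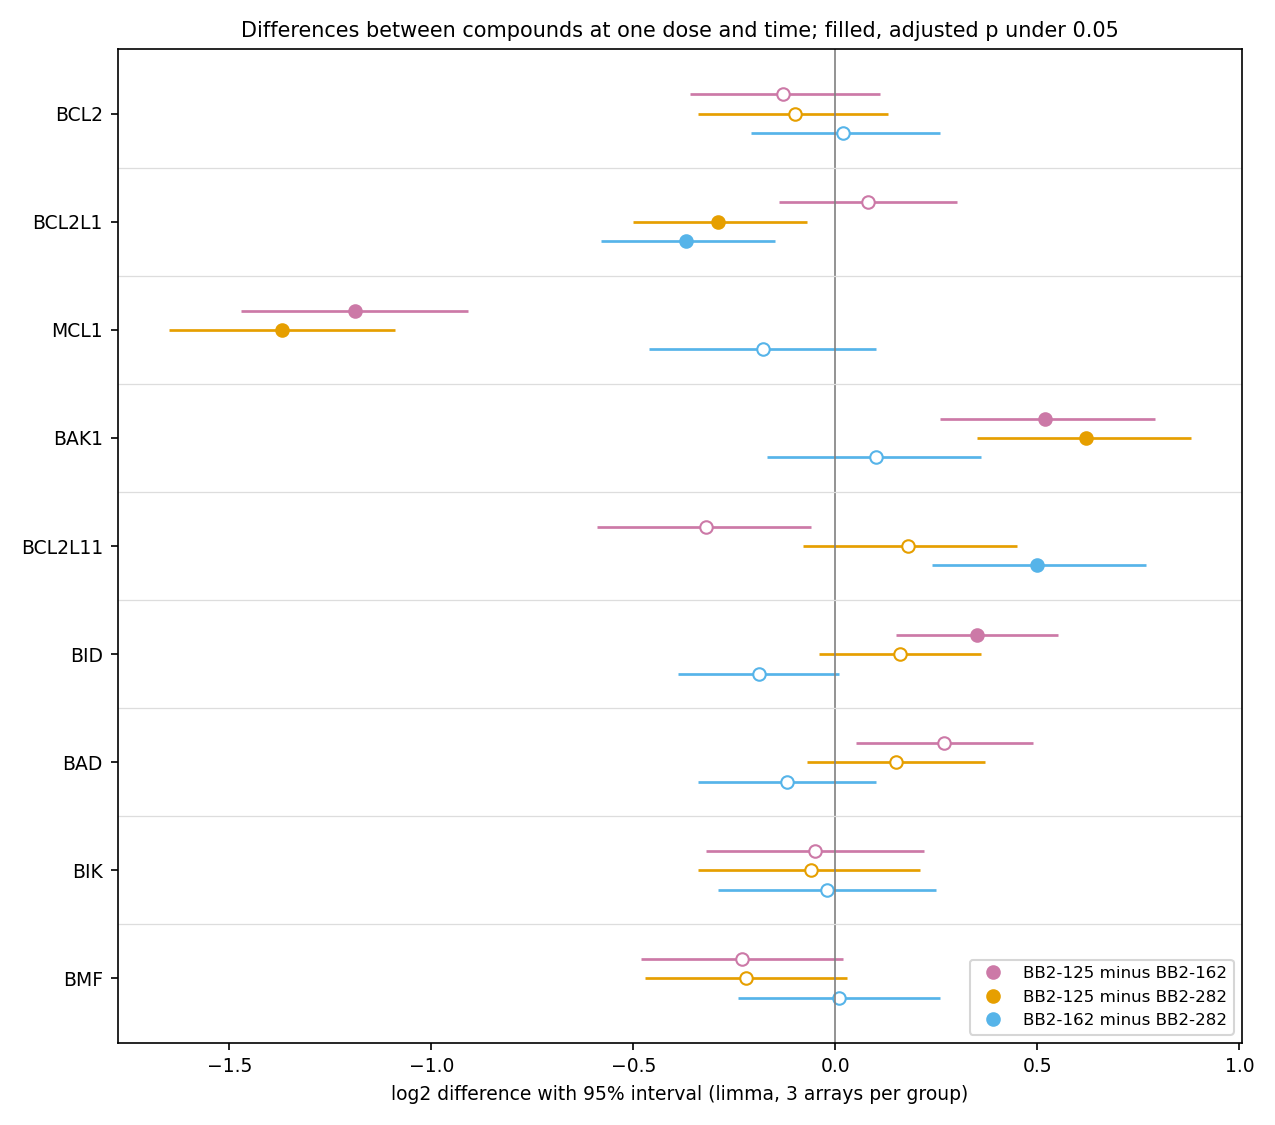
Log2 difference between each pair of compounds, with 95% intervals from limma (3 arrays per group). Filled points have an adjusted p under 0.05. Both contrasts of BB2-125 lie far below 0 for MCL1 (-1.19 and -1.37) and above 0 for BAK1 (0.52 and 0.62).

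The remaining apoptosis genes were taken as 6 lists. Their counts stand beside the shares of all genes: 28.2% higher and 29.4% lower with hypoxia, 13.3% and 15% with BB2-125, 15.7% and 20.4% with BB2-162, and 5.65% and 7.94% with BB2-282. Among 12 other BCL2 family genes, hypoxia raised 8 and lowered 1 (57.5% of all genes called), with a median change of 0.41. Those of lowest p were BCL2A1, a further guardian (1.74 ± 0.13), and the mitophagy receptors BNIP3L (1.55 ± 0.12) and BNIP3 (1.35 ± 0.1), which are textbook hypoxia-induced genes. BB2-125 raised 4 and lowered 1 (median 0.14). PMAIP1, the gene of NOXA, whose protein binds MCL1, rose by 1.32 ± 0.11 with BB2-125 (limma adjusted p = 1.08e-07), and HRK, another BH3-only gene, by 0.47 ± 0.09. BB2-162 raised 5 and lowered 4 (median 0.08), among them PMAIP1 (0.89 ± 0.11), HRK (0.58 ± 0.09) and BNIP3 (-0.64 ± 0.1). BB2-282 raised 1, BAX (0.32 ± 0.09, limma adjusted p = 0.0248), and lowered 1, BNIP3 (-0.41 ± 0.1, limma adjusted p = 0.01). The BAX call ended without hypoxic vehicle replicate 1 or 2 or any 1 of the BB2-282 arrays (adjusted p from 0.0565 to 0.142). The BNIP3 call ended without hypoxic vehicle replicate 1 (0.0574) or BB2-282 replicate 2 (0.0553) and under quantile normalization (0.0838). BAX was also higher with BB2-125 (0.25 ± 0.09, limma adjusted p = 0.0454). That call is close to the threshold and was not checked under the alternatives.

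Of 11 tested genes of the apoptosome and caspases, hypoxia lowered 6 and raised 2 (57.5% of all genes called), with a median of -0.49. The mitochondrial oxidoreductase gene AIFM1 fell most clearly (-2.39 ± 0.11), followed by the caspase genes CASP6 (-2.04 ± 0.14) and CASP2 (-1.65 ± 0.12). CASP6 averaged 6.96 in normoxia and 4.92 in hypoxic vehicle, the latter near the arrays' 25th percentiles (4.57 to 4.9). The size of the CASP6 fall is therefore poorly resolved. CYCS, the gene of cytochrome c, fell with hypoxia (-1.04 ± 0.1, limma adjusted p = 6.71e-08) and moved differently with the compounds. Against hypoxic vehicle it rose by 0.93 ± 0.1 with BB2-125 and 1.09 ± 0.1 with BB2-162. Its means there, 9.3 and 9.46, were near that of normoxia (9.41). With BB2-282 it fell further (-1.25 ± 0.1, limma adjusted p = 4.17e-07). AIFM1 rose by 0.95 ± 0.11 with BB2-125 and by 0.5 ± 0.11 with BB2-162. HTRA2, a mitochondrial protease gene, fell with all 3 compounds (-0.44 ± 0.09 with BB2-125, -0.78 ± 0.09 with BB2-162 and -0.57 ± 0.09 with BB2-282). In counts, BB2-125 raised 2 and lowered 3 (median 0.09; 28.4% of all genes called), BB2-162 raised 4 and lowered 4 (median 0.16; 36.1%), and BB2-282 lowered 4 (median -0.05; 13.6%).

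Of 4 tested caspase inhibitors (BIRC3 was not analysed here), hypoxia raised BIRC2 (1.16 ± 0.1) and XIAP (0.4 ± 0.14, limma adjusted p = 0.018) and lowered NAIP (-0.49 ± 0.14). The XIAP call ended without normoxic replicate 1 (0.0568), normoxic replicate 3 (0.0623) or hypoxic vehicle replicate 2 (0.0653). BB2-125 lowered 3 of the 4 (median -0.47), where 15% of all genes were lower, and BB2-162 lowered 2 (median -0.51), where 20.4% were. XIAP, a direct inhibitor of caspases, fell with BB2-125 (-1.09 ± 0.14) and BB2-162 (-1.22 ± 0.14), and NAIP with both as well (-0.62 ± 0.14 and -0.84 ± 0.14). NAIP was dim, and its means with BB2-125 and BB2-162, 4.89 and 4.67, lay near the arrays' 25th percentiles (4.57 to 4.9). The size of its falls is therefore poorly resolved. With BB2-282 none of the 4 passed in limma, and those of lowest p were BIRC2 (0.13, adjusted p = 0.489) and XIAP (0.09, adjusted p = 0.759).

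Of 9 tested genes of the death receptor branch (RIPK1 was not analysed here), hypoxia raised 3 and lowered 4 (median -0.21; 57.5% of all genes called). TNFRSF10B, a TRAIL receptor gene, rose by 1.89 ± 0.11, whereas CASP8, whose protein cuts BID, fell (-1.51 ± 0.11), as did TNFRSF1A (-0.75 ± 0.09). BB2-125 raised 1 and lowered 3 (median -0.2; 28.4% of all genes called), and BB2-162 likewise raised 1 and lowered 3 (median 0; 36.1%). The other TRAIL receptor gene, TNFRSF10A, fell with BB2-125 (-0.96 ± 0.13) and BB2-162 (-1 ± 0.13), and so did the adaptor FADD (-0.5 ± 0.12 with each). BB2-282 raised 2, FAS (0.83 ± 0.11, limma adjusted p = 8.74e-05) and TNFRSF1A (0.35 ± 0.09, limma adjusted p = 0.0116), with a median of 0.07. With BB2-162 FAS was the 1 gene raised (0.3 ± 0.11, limma adjusted p = 0.0478), a call that ended without BB2-162 replicate 1. TNFRSF1A fell with BB2-162 (-0.34 ± 0.09). The 2 probe sets of CFLAR, the caspase-8 inhibitor, disagreed, with hypoxia changes of 0.07 for the brighter, which was used, and -1.64 for the dimmer.

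Of 12 partners and turnover factors of the family, hypoxia raised 5 and lowered 6 (median -0.16; 57.5% of all genes called). BAG1, a co-chaperone that binds BCL2, rose by 1.02 ± 0.13, while DYNLL2, the dynein light chain that anchors BMF, and USP9X, which removes ubiquitin from MCL1, fell (-0.8 ± 0.09 and -1.16 ± 0.16). BB2-125 raised 3 and lowered 2 (median -0.09; 28.4% of all genes called), and BB2-162 raised 3 and lowered 4 (median -0.22; 36.1%). With both, PPP3CA, the gene of a calcineurin subunit that dephosphorylates BAD, fell (-1.32 ± 0.12 and -1.63 ± 0.12), as did BTRC, a ubiquitin ligase subunit (-0.96 ± 0.12 and -1.14 ± 0.12). BB2-282 lowered 2, among them DYNLL1 (-0.53 ± 0.14), and raised 1, PPP3CA (0.41 ± 0.12, limma adjusted p = 0.0327), with a median of 0.02. The PPP3CA call held only without BB2-282 replicate 1 among the 6 single arrays left out (adjusted p from 0.0599 to 0.162 for the others), and it ended under median centring (0.0698). The DYNLL1 call ended without hypoxic vehicle replicate 1 (0.0581), hypoxic vehicle replicate 2 (0.0889) or BB2-282 replicate 3 (0.094). DYNLL1 also fell with BB2-162 (-0.65 ± 0.14, limma adjusted p = 0.00147).

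Of 7 tested transcription factors that act on BH3-only genes, hypoxia raised 5 and lowered 1 (median 0.61; 57.5% of all genes called). DDIT3, the gene of CHOP, rose by 3.31 ± 0.13, JUN by 3.06 ± 0.14 and FOXO1 by 0.77 ± 0.1. BB2-125 raised 4 (median 0.4; 13.3% of all genes were higher), DDIT3 by a further 1.21 ± 0.13 and MYC by 0.75 ± 0.1. BB2-162 raised 5 (median 0.44; 15.7% were higher), among them MYC (0.83 ± 0.1) and FOXO3 (0.6 ± 0.12). BB2-282 raised 1, JUN (0.52 ± 0.14, limma adjusted p = 0.0168), and FOXO1 missed the threshold (0.32, adjusted p = 0.0541). FOXO1 passed under a stricter dim filter (0.0425), under quantile normalization (0.0498) and without hypoxic vehicle replicate 3 (0.0296). The JUN call ended without hypoxic vehicle replicate 1 (0.0512), hypoxic vehicle replicate 2 (0.0558), BB2-282 replicate 2 (0.0634) or BB2-282 replicate 3 (0.0626). With BB2-162 both genes passed, JUN at 0.44 ± 0.14 and FOXO1 at 0.49 ± 0.1 (limma adjusted p = 0.0218 and 0.00144). Medians over all genes were 0.09 for hypoxia, 0.02 for BB2-125, 0.06 for BB2-162 and 0.02 for BB2-282.

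**Figure D4:**
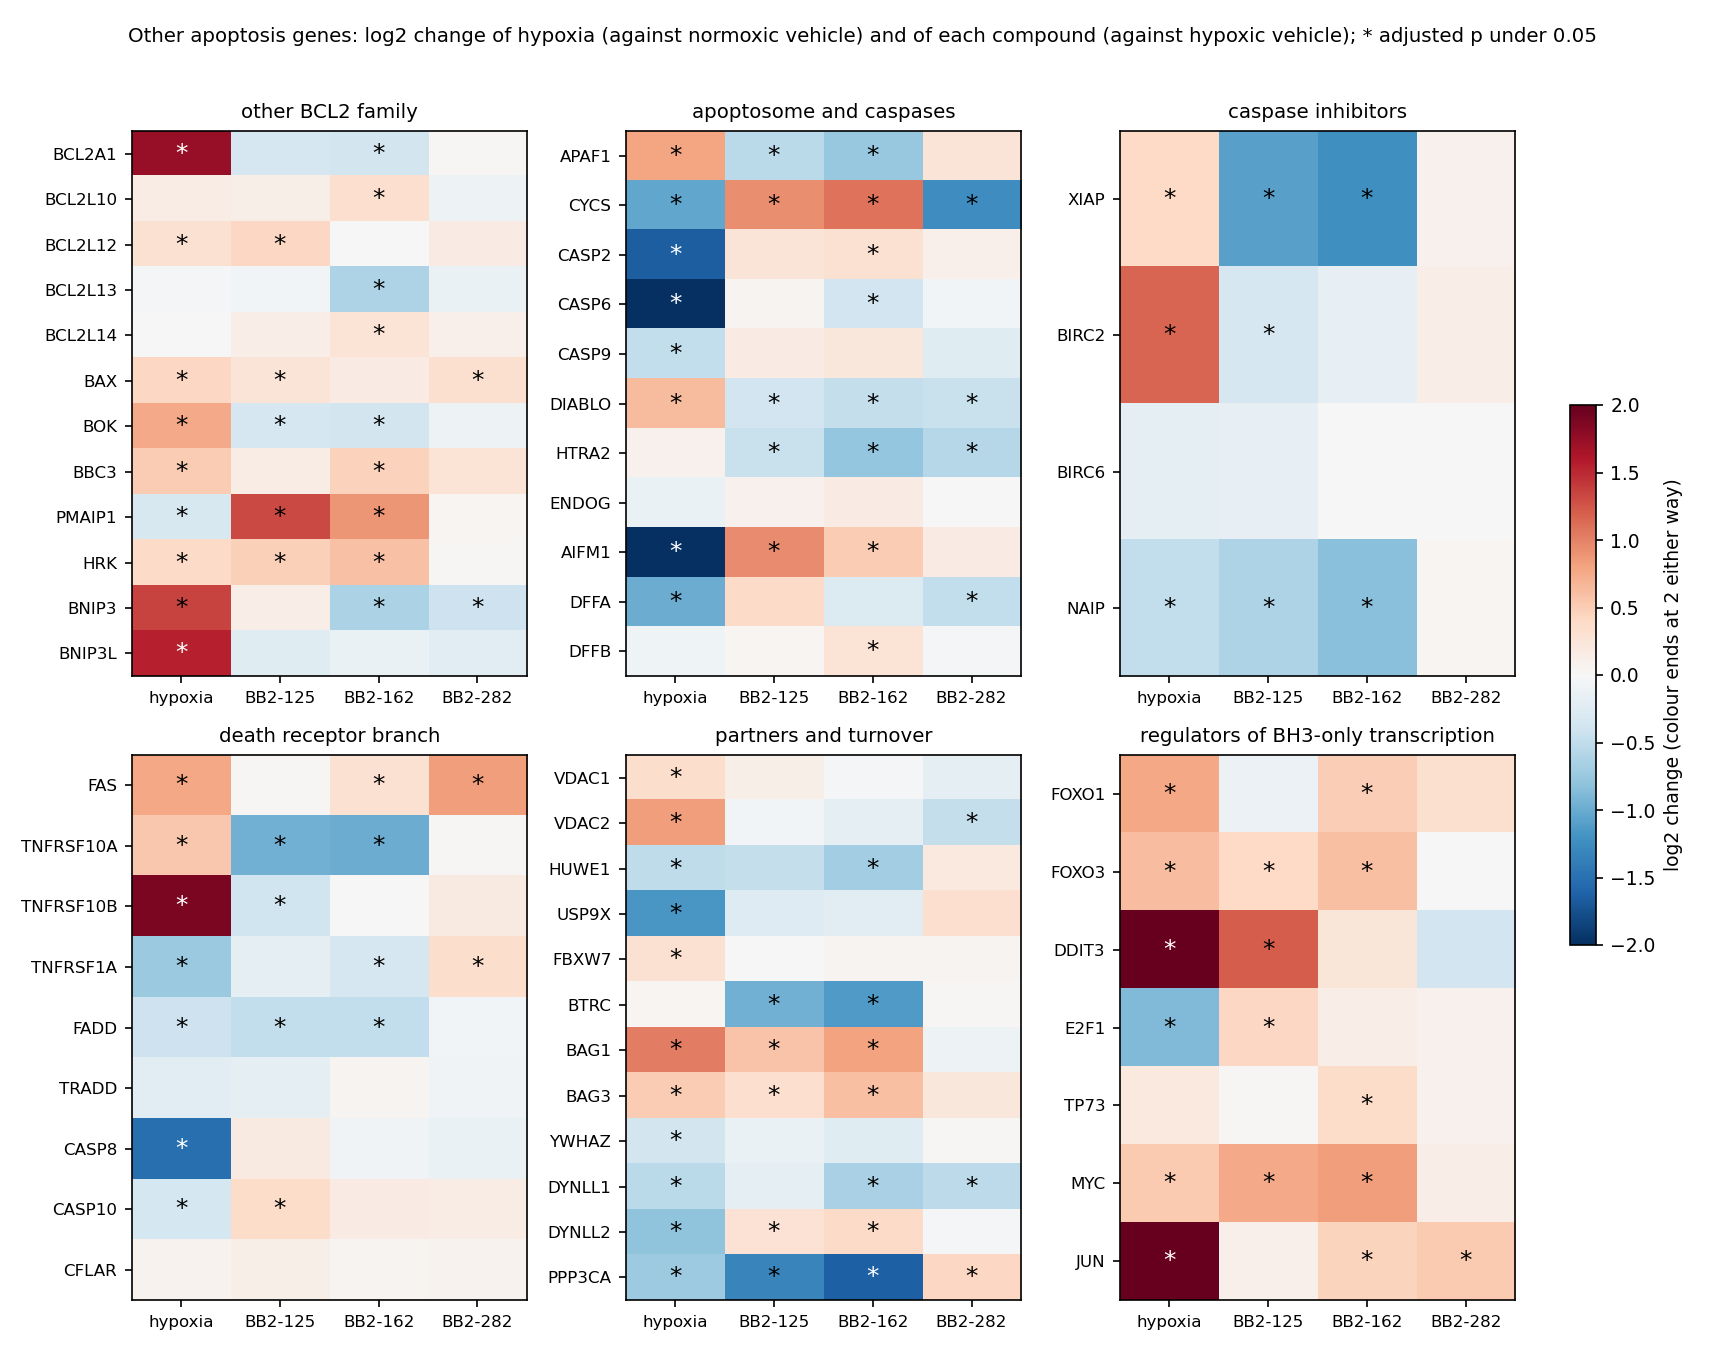
Log2 change of the other apoptosis genes in 6 lists, for hypoxia against normoxic vehicle and each compound against hypoxic vehicle. Colour gives the change and ends at 2 either way, and a star marks an adjusted p under 0.05. XIAP is blue with BB2-125 (-1.09) and BB2-162 (-1.22), while CYCS is red with these and blue with hypoxia (-1.04) and BB2-282 (-1.25).

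For the 4 members that varied most clearly over the 5 groups, the genes with the nearest pattern over the 15 arrays were sought. MCL1 was tracked most closely by FAM107B (Pearson r = 0.983), ZNF292 (0.978) and DMTF1 (0.978). BCL2L1 was tracked by VIM (0.968), P4HA2 (0.968) and YKT6 (0.966), and BAD by ALKBH7 (0.966), COX7A2L (0.964) and MRPL10 (0.963). BAK1 was tracked by TMEM101 (0.948), ASNS (0.943) and BNIP1 (0.941). The arrays share groups of 3, so these coefficients mostly describe the 5 group means and are given without a p.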

How the data were processed

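The authors deposited linear intensity values per probe set, made with RMA per the submitters' processing notes; its software version and genome build are not given in the sources used here. RMA equalises distributions between arrays, so a shift common to all genes would largely be removed. The log2 was taken here. Of 28869 probe sets, 19310 had 1 symbol, 1752 several and 7807 none; 19279 symbols were checked through Entrez IDs. Genes above their array's 25th percentile on at least 3 arrays were tested (16005 tested, 2372 too dim). One limma 3.58.1 fit in R 4.3.3 held all 15 arrays and 10 comparisons, with Benjamini-Hochberg adjustment over all genes within each comparison; 0.05 was the threshold. The code was tested on simulated data.

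Genes named are all 10 members, up to 3 genes of lowest p per list for hypoxia and up to 2 per compound, and the 3 nearest patterns of 4 members. CFLAR was added after its values were seen. Members and lists were chosen with earlier results of these data known. Alternatives varied the filter, normalization, probe sets, variance prior, arrays fitted, replicate block and single arrays. Same-numbered arrays of BB2-125 and hypoxic vehicle deviated together (r from 0.19 to 0.33), the only pair of groups of 10 in which every correlation was over 0.1; this pairing comes from the data. The number of arrays limits the precision.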

Additional observations from a re-analysis of the deposited data

Results flagged for a closer look

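Between pairs of compounds, 8 of 27 member differences passed a direct test in limma, 3 arrays against 3, a share near the 26.1%, 36.3% and 35.8% of all genes in these contrasts. MCL1 was lower with BB2-125 than with BB2-162 (-1.19, adjusted p = 5.66e-06) and BB2-282 (-1.37, adjusted p = 2.41e-07), and BAK1 was higher (0.52, adjusted p = 0.00518, and 0.62, adjusted p = 0.000668). Both contrasts use the same BB2-125 arrays. BID was higher with BB2-125 than with BB2-162 (0.35, adjusted p = 0.0113). BCL2L1 was lower with BB2-125 (-0.29, adjusted p = 0.0368) and BB2-162 (-0.37, adjusted p = 0.00974) than with BB2-282. BCL2L11 was higher with BB2-162 than with BB2-282 (0.5, adjusted p = 0.00426).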

How the results depend on the processing

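Of 41 called member changes over the 10 comparisons, 26 were called in every alternative (13 to 15 each) and 15 were lost in at least 1, none with a change of sign. Of 49 uncalled changes, 10 were called in at least 1 alternative and 14 changed sign in at least 1. Members called in BB2-162 against hypoxic vehicle, 2 in the fit of all arrays, were 1 under median centring, 1 under quantile normalization, 1 with the replicate block, 0 with the 2 groups alone (3494 genes called, against 5780), and 0 to 4 when single arrays were left out (4067 to 7698 genes), with 4 and 7698 without BB2-162 replicate 1. Leaving out single arrays gave 1222 to 2393 genes for BB2-282 against hypoxic vehicle (2176 with all), 3 to 5 members and 2645 to 6208 genes for BB2-125 against BB2-162 (4182 with all), and 1 to 2 members for BB2-162 against BB2-282. With 2 groups alone BB2-125 against BB2-162 gave 2582 genes, and the BID call ended (adjusted p = 0.0597). The replicate block gave 4444 genes and 2 members for BB2-125 against hypoxic vehicle, and 5352 and 2 in those groups alone, an alternative added after seeing the data; it moved no other count of members called. CFLAR, the mean of whose probe sets was lower where the brighter one was not, became -0.78 for hypoxia, -0.61 for BB2-125 against hypoxic vehicle, -0.69 for BB2-125 against BB2-282, and -1.4, -1.12 and -0.71 for BB2-125, BB2-162 and BB2-282 against normoxia. Of 51 called changes of named list genes 45 were called in every alternative. Without BB2-162 replicate 1, an alternative added after seeing the data, BB2-162 raised and lowered 5 and 3 of 12 other BCL2 family genes, 3 and 4 of 11 apoptosome and caspase genes, 0 and 3 of 4 caspase inhibitors, 0 and 3 of 9 death receptor genes, 3 and 6 of 12 partners and 4 and 0 of 7 transcription factors. Under median centring the part of the called genes with a higher level went from 43.4% to 28.2% for BB2-162 against hypoxic vehicle, from 63.9% to 74.4% for BB2-125 against BB2-162 and from 43.4% to 32.9% for BB2-162 against BB2-282. The causes were not tested. BCL2 and BIK lay below the array medians, where signal over background limits what can be resolved. The same holds for the group means of NAIP, and for those of CASP6 in the hypoxic groups.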
